A study of Arabidopsis thaliana with 12 samples.

Results

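Wild-type seedlings of Arabidopsis thaliana, a small flowering plant, were compared with and without a short pulse of glucose. The comparison takes 6 of the 12 arrays of the series. They are 3 of untreated wild-type seedlings (WT, labelled Col) and 3 of WT seedlings given 15 mM glucose for 2 h. The 6 arrays of a line with an inducible RNAi construct against tor were left aside. The arrays were picked by their labels, though with earlier results of these data known. Arrays with the same biological replicate number, 1 to 3, were treated as pairs. All seedlings were 3 days old, grown whole in liquid medium under weak light so that the food stored in the seed ran out before sugar was supplied. The sources used here do not say whether WT seedlings received estradiol, the inducer used for the RNAi line. Each value below is a level per probe set (the probes that together measure a transcript) on the log2 scale after RMA normalization, so that a difference of 1 is a 2-fold change, and ± gives the standard error of a fitted change. The labels call the replicates biological without saying what was kept apart, so the p-values reflect only how far these arrays differ among themselves.

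A germinating seedling first lives on stored oil and protein, and later on sugar from photosynthesis. Plant cells sense sugar in part through opposing protein kinases. SnRK1 is active when energy is short and favours breakdown of cell material, while TOR is active when sugar is plentiful and favours ribosome production, DNA synthesis and growth. The question the design puts is which transcripts respond early when glucose is given back. The TOR gene itself has no named probe set here and was not analysed here.

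Green-tissue and root genes served to check the tissue label. Of 6 green markers 2 were named, the antenna proteins LHCB4.1 and LHCB4.2 of photosystem II, which were bright on all 6 arrays, at 13.68 to 13.87 and 12.16 to 13.03. The root-hair expansins EXPA7 and EXPA18 lay at 6.44 to 7.54 and at 4.65 to 6.08, EXPA18 being higher with glucose (0.85). EXPA18 had an adjusted p of 0.18 without pair 2. EXPA18 had an adjusted p of 0.15 without pair 3. EXPA18 had an adjusted p of 0.096 without the replicate block. The 4 seed-storage markers chosen for this check carry no named probe set here and were not checked. On each of the 6 arrays, 30.3% to 32.2% of probe sets lay under a log2 level of 5, where differences are poorly measured, and array medians ran from 6.53 to 6.68.

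Glucose changed many transcripts within 2 h. In the paired limma fit 6907 of 22746 probe sets passed an adjusted p of 0.05 (Benjamini-Hochberg over all of them), which is 30.4%. Of these, 3942 rose (17.3% of those tested) and 2965 fell (13.0%). Changes of at least 2-fold numbered 1384 up (6.08%) and 1127 down (4.95%). The largest changes were mostly drops, since 89 probe sets fell and 24 rose by at least 8-fold, and 254 fell and 195 rose by at least 4-fold. In whole seedlings, fewer cells of a type and less RNA per cell cannot be told apart. Rises made up 57.1% of calls, but 46% when each array was centred on its own median, so the balance of rises and drops depends on the scaling. Leaving out a pair gave 8111 calls without pair 1, 2457 without pair 2 and 3603 without pair 3, and no probe set called in both these fits and the full one changed direction.

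Calls were rare among dim transcripts. Below a mean level of 5, 2.6% of 6969 probe sets rose and 1.6% fell. At levels of 7 to 9, 24.8% rose and 21.1% fell, and from 11 upwards 24.8% rose and 19.4% fell. Functions can be described only for the 1737 probe sets (1706 genes) whose gene carries a descriptive name in the sources used here. Among these, 314 rose and 257 fell, 32.9% in all, so the named probe sets were called about as often as the array as a whole. The others carry a locus number alone or no gene. The gene groups below are to be read against the array, where 17.3% rose and 13.0% fell. These shares include the dim probe sets. For groups with few dim members, the 24.8% and 21.1% at levels of 7 to 9 are the closer comparison, and the array shares overstate how far such groups stand out. Of the list members, 77.5% of 40 were called in catabolism, 72.2% of 18 in protein folding and 63% of 54 in growth. Part of these members come from lists added after values were seen. In folding they are the heat-shock (5) and endoplasmic reticulum (9) lists, and in catabolism the aldehyde dehydrogenases (8). In growth they are the lists of polymerases II, IV and V (8) and LSM proteins (6). In the other sections 18.1% to 37.2% were called, so their counts lie nearer to the share over the array or below it. Without pair 2, 19 of the 31 calls in catabolism, 5 of the 13 in folding and 21 of the 34 in growth remained, and without pair 3 it was 22, 8 and 24. In the other sections 2 (of 23, membrane traffic) to 19 (of 45, specialised metabolism) remained without pair 2.

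Of the 12 strongest rises, which ran from 3.07 to 4.48 (adjusted p 0.0017 to 0.033), 11 belong to genes known here by locus number only. AT1G53540 read 4.15, 3.93 and 3.96 without glucose and 7.13, 8.70 and 9.64 with it in pairs 1 to 3, a change of 4.48 ± 0.48 (SE, adjusted p = 0.0033). AT2G29500 read 5.68, 5.43 and 4.61 without glucose and 8.97, 9.87 and 10.01 with it, a change of 4.38 ± 0.38 (SE, adjusted p = 0.0023). AT3G15460 read 5.66, 5.26 and 4.95 without glucose and 8.71, 8.83 and 9.03 with it, a change of 3.57 ± 0.20 (SE, adjusted p = 0.0017). In each of the 3, every glucose array stood above every untreated one, and AT3G15460 was nearly as high in pair 1 as in the others. AT1G06000, AT5G55450, AT5G54970, AT4G04940, AT1G55210 and AT3G61820 rose by 3.07 to 3.84. The last locus numbers are AT5G51440 (4.1 ± 1.04, adjusted p = 0.033) and AT5G12110 (3.32 ± 0.77, adjusted p = 0.026). Both rested on pairs 2 and 3, with changes of 0.62, 5.77 and 5.91 and of 0.74, 4.56 and 4.65 in pairs 1 to 3. AT5G51440 and AT5G12110 had adjusted p-values of 0.14 and 0.11 without pair 2. AT5G51440 and AT5G12110 had adjusted p-values of 0.13 and 0.10 without pair 3. The described gene among the 12 is GH9C2, an endoglucanase of the cell wall, taken up with its family.

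The 12 strongest drops ran from -6.30 to -3.93 (adjusted p 0.0017 to 0.0049). AT1G19530 was lowest of all, at 9.64, 11.69 and 12.04 without glucose and 4.92, 4.54 and 5.02 with it, a change of -6.30 ± 0.48 (SE, adjusted p = 0.0019), or 78.6-fold. Its array without glucose in pair 1 was dimmer than the other 2, while all 3 glucose arrays were near or under a level of 5. Next to it in the genome lies AT1G19540, which fell by 3.93 with an SE of 0.33. AT3G62950 fell almost evenly in the pairs, from 9.41, 8.50 and 9.35 to 4.04, 3.83 and 3.72. AT4G37220, AT4G27450, AT4G25580, AT1G15330, AT2G32150 and AT1G54740 fell by 3.93 to 4.23. The other 3 carry descriptive names, MCCA, GAT1_2.1 and PPDK, and are described with their groups. All 12 drops passed without any 1 of the pairs. The 5 brightest transcripts to rise at least 2-fold, AT1G09310, AT3G05560, AT2G27710, AT5G52650 and AT5G02870, rose by 1.00 to 1.22. The 5 brightest to fall were HPR, AT5G14120, UBC28, AT3G15450 and CP5, and the deepest of them was AT3G15450 (-3.06 ± 0.31, adjusted p = 0.0029). AT5G14120 had an adjusted p of 0.071 without pair 2. AT5G14120 had an adjusted p of 0.065 without pair 3.

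Breakdown of amino acids had the lowest median change of the groups described. Of 8 probe sets, 7 fell, 6 of them at least 2-fold, and none rose. The share falling was 13.0% over the array and 21.1% at levels of 7 to 9. The median change was -2.71 (-1.52, -2.78 and -3.84 in pairs 1 to 3), against -0.01 over all probe sets. MCCA, the biotin-bearing subunit of the methylcrotonyl-CoA carboxylase of leucine breakdown, read 11.54, 12.00 and 12.54 without glucose and 8.01, 6.02 and 5.96 with it. Its change was -5.36 ± 0.56 (SE, adjusted p = 0.0031), a 41.2-fold drop. MCCB, the other subunit of that enzyme, went from 11.26, 12.07 and 12.71 to 9.04, 8.58 and 8.28, a change of -3.38 ± 0.39 (SE, adjusted p = 0.0038). IVD, the isovaleryl-CoA dehydrogenase of the preceding step, went from 10.29, 11.26 and 11.55 to 7.80, 7.10 and 7.33, a change of -3.62 ± 0.35 (SE, adjusted p = 0.0027). In all 3 the untreated and glucose arrays were far apart, and pair 1 gave the smallest drop. Electrons from IVD pass to the mitochondrial respiratory chain through the electron-transfer flavoprotein and its quinone oxidoreductase. ETFQO, the oxidoreductase, fell (-2.98 ± 0.31) and so did ETFBETA, a flavoprotein subunit (-0.96 ± 0.12), whereas ETFALPHA at -0.49 did not pass. LKR, which begins lysine breakdown, read 8.92, 9.92 and 10.83 without glucose and 8.10, 7.15 and 7.06 with it, with arrays close together only in pair 1, a change of -2.45 ± 0.53 (SE, adjusted p = 0.020). D2HGDH, a hydroxyglutarate dehydrogenase that feeds the same carriers, changed by -1.14. LKR and D2HGDH had adjusted p-values of 0.087 and 0.068 without pair 2. LKR had an adjusted p of 0.060 without pair 3.

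Aldehyde dehydrogenases changed in both directions. ALDH6B2, the methylmalonate-semialdehyde dehydrogenase of valine breakdown, fell (-2.38 ± 0.17) from 12.23, 12.39 and 12.60, and so did ALDH7B4, linked to lysine-derived aldehydes and stress (-2.50 ± 0.18). ALDH11A3 also fell (-1.55). In the other direction ALDH3F1 rose by 1.01 and ALDH2C4, which makes ferulic and sinapic acids for phenolics, by 0.52. Of 8 members 4 fell and 2 rose. Of those 6 calls, 3 remained without pair 2 and 3 without pair 3. Some nitrogen-recycling genes outside the lists were chosen after their values were seen, so their drops add nothing to the group counts. MGL, the methionine gamma-lyase, read 8.91, 9.93 and 10.15 without glucose and 6.24, 6.65 and 7.25 with it, a change of -2.95 ± 0.15 (SE, adjusted p = 0.0017). AAH, the allantoate amidohydrolase of purine breakdown, changed by -2.60 ± 0.35 (SE, adjusted p = 0.0055). ASPGB1, an asparaginase, read 7.19, 10.11 and 10.20 without glucose and 6.70, 7.03 and 6.71 with it, so that its drop of -2.35 ± 0.57 came from pairs 2 and 3. ASPGB1 had an adjusted p of 0.12 without pair 2. ASPGB1 had an adjusted p of 0.11 without pair 3. ASPGB1 had an adjusted p of 0.065 without the replicate block.

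Of 8 probe sets in a mixed list of starvation, senescence and stress genes, 5 fell, from 4 genes, and 1 rose. GAT1_2.1, a glutamine amidotransferase-like protein, read 10.30, 10.98 and 11.66 without glucose and 6.06, 5.52 and 5.88 with it, a change of -5.16 ± 0.30 (SE, adjusted p = 0.0017). Another probe set of that gene read 6.63, 6.63 and 6.98 without glucose and 4.88, 4.89 and 5.23 with it, a change of -1.75 ± 0.10. The probe sets agreed in direction and differed in size, and the other was dimmer. PPDK, the pyruvate phosphate dikinase that supports sugar synthesis from amino acids in seedlings, dropped from 10.90, 11.59 and 12.07 to 6.73, 6.74 and 6.68, a change of -4.80 ± 0.23 (SE, adjusted p = 0.0017), or 28.0-fold. The 3 glucose arrays of PPDK were nearly equal. AKINBETA1, a regulatory subunit of SnRK1 itself, went from 11.16, 11.51 and 11.53 to 8.74, 7.82 and 7.85, a change of -3.26 ± 0.27 (SE, adjusted p = 0.0023). The other SnRK1 subunit measured, KINbeta2, stood at 0.18, and the TOR partners RAPTOR1 and RAPTOR2 at -0.12 and 0.58, none of which passed. SIS, a salt-induced serine-rich protein, fell (-2.55 ± 0.29). SAG29, a senescence-associated SWEET transporter, rose slightly (0.39, groups overlapping), and SAG101 and YLS5 did not pass. SAG29 had an adjusted p of 0.24 without pair 2. SAG29 had an adjusted p of 0.12 without pair 3. SAG29 had an adjusted p of 0.097 without pair 1. SAG29 had an adjusted p of 0.34 without the replicate block. After centring, SAG29 had an adjusted p of 0.11. In the authors' deposited table both GAT1_2.1 probe sets are listed at 0.0 for the dChip log2 change, beside dChip p-values of 3.52e-07 and 9.28e-10.

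Autophagy, the delivery of cell contents to the vacuole for recycling, was represented mainly by 1 gene family. Of 11 members 10 fell, 5 of them at least 2-fold, with a median of -0.97 (-0.64, -1.5 and -1.25 by pair). The share falling was 13.0% over the array and 21.1% at levels of 7 to 9. Of the 10, 9 belong to the ATG8 family, the ubiquitin-like tags that coat the autophagosome. ATG8E read 8.79, 9.75 and 9.55 without glucose and 7.31, 6.56 and 5.82 with it, a change of -2.80 ± 0.42 (SE, adjusted p = 0.0068), and ATG8F went from 10.98, 11.34 and 11.34 to 9.68, 9.10 and 8.65, a change of -2.08 ± 0.26 (SE, adjusted p = 0.0047). ATG8C, APG8A and ATG8H followed at -1.47, -1.30 and -1.29. The remaining ATG8 genes fell by 0.45 to 0.97, and so did ATG101, a subunit of the kinase complex that starts autophagy (-0.92). ATG3, the enzyme that attaches the lipid to ATG8, was the 1 member that did not pass, at -0.47. Without pair 2 and without pair 3, 4 and 6 of the 10 calls remained, and without the replicate block 8 did.

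Of 5 genes of oil breakdown and peroxisomes 2 fell. SDP1, the main lipase of seed oil bodies, read 8.63, 9.54 and 9.73 without glucose and 7.64, 7.32 and 7.18 with it, a change of -1.92 ± 0.30 (SE, adjusted p = 0.0078), and ICL, the isocitrate lyase of the glyoxylate cycle that turns fatty acids into sugar precursors, went from 12.24, 12.50 and 12.54 to 11.05, 10.55 and 10.63, a change of -1.68 ± 0.18 (SE, adjusted p = 0.0032). Both fell in every pair and stayed called without any 1 of them. The other 3 members, AIM1 of beta-oxidation, PEX4 of peroxisome import and the lipase relative SDP1-LIKE, did not pass (-0.37 to -0.06).

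**Figure D1:**
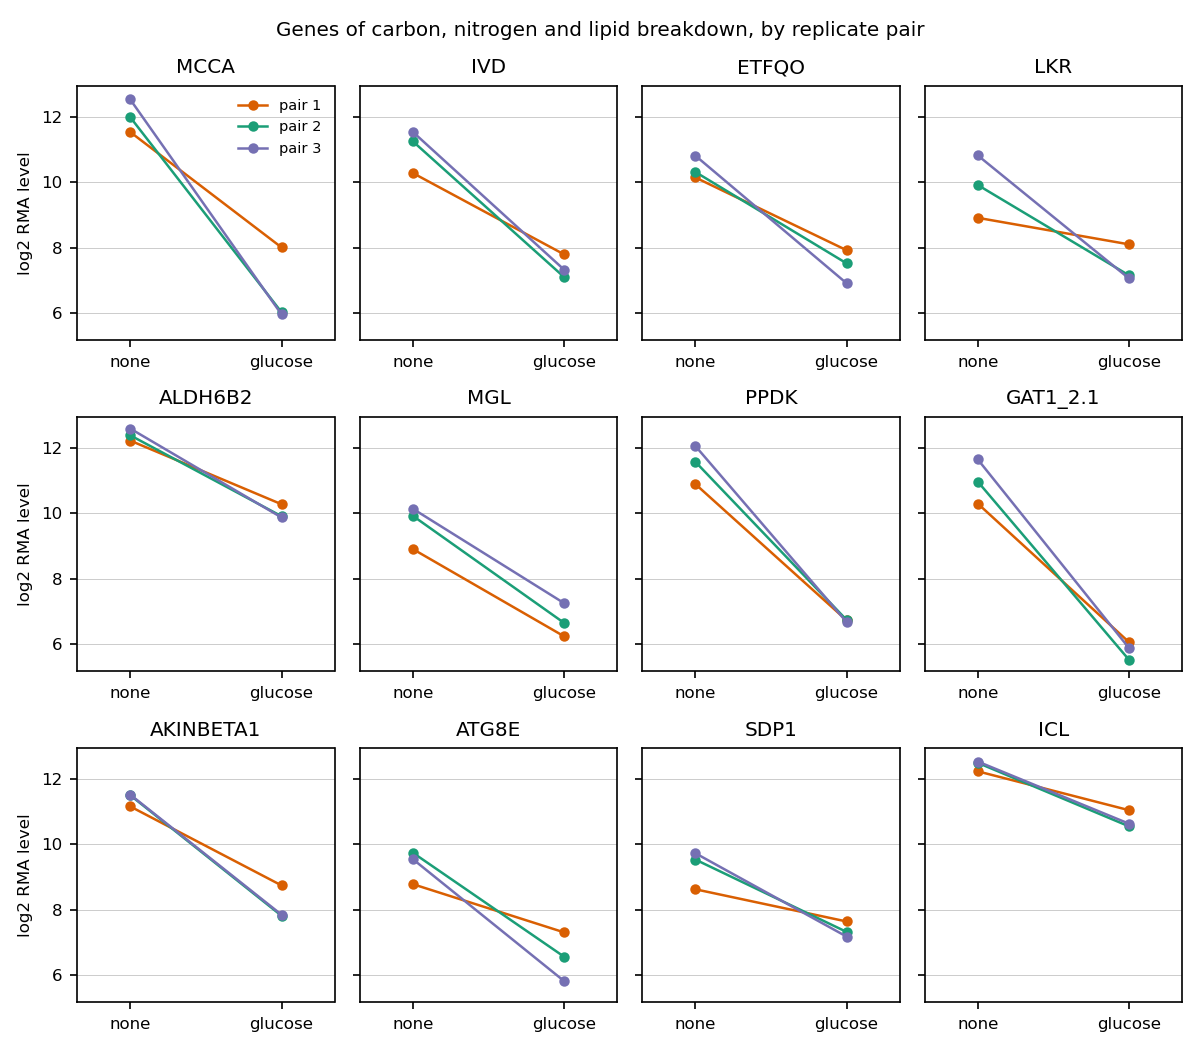
Log2 RMA level of 12 genes of carbon, nitrogen and lipid breakdown in each array without and with glucose, with lines joining arrays of the same replicate number. All lines fall, pair 1 (orange) is the flattest for LKR, SDP1 and ATG8E, and PPDK ends at almost the same level in the 3 glucose arrays.

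Of 49 probe sets for sugar and energy metabolism, 10 rose and 5 fell, and the 30.6% called is about the 30.4% of the array. Of 5 glycolytic and fermentation probe sets, ENOC (an enolase-family protein, 0.75) and PGM (phosphoglucomutase, 0.69) rose and none fell. In the tricarboxylic acid cycle, SDH1-1, the flavoprotein of succinate dehydrogenase, read 9.01, 8.94 and 9.18 without glucose and 9.96, 10.17 and 10.36 with it, a change of 1.12 ± 0.12 (SE, adjusted p = 0.0031). IDH-VI, an isocitrate dehydrogenase subunit, rose by 1.02 ± 0.13, and MAB1, the beta subunit of mitochondrial pyruvate dehydrogenase, by 0.72 ± 0.11. The other 7 of 10 members of that list did not pass. Both cytochrome c genes rose, CYTC-1 by 0.49 and CYTC-2 by 1.4. CYTC-2 went from 7.59, 7.13 and 6.09 to 8.08, 8.38 and 8.56, with the third untreated array well below the others. MAB1, CYTC-1, CYTC-2, ENOC and PGM had adjusted p-values of 0.069, 0.14, 0.10, 0.072 and 0.17 without pair 2. CYTC-1 and CYTC-2 had adjusted p-values of 0.14 and 0.062 without pair 3. PGM had an adjusted p of 0.060 without pair 1.

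In the storage and movement of sugar, single members changed. APL3, a large subunit of the ADP-glucose pyrophosphorylase that commits glucose to starch, read 4.99, 5.11 and 4.82 without glucose and 6.02, 7.46 and 7.25 with it, a change of 1.94 ± 0.29 (SE, adjusted p = 0.0068). ATSPS4F, a sucrose-phosphate synthase, fell (-1.26 ± 0.22) from dim levels of 5.38, 6.38 and 5.74. The other 7 of 9 starch and sucrose probe sets did not pass. ATSPS4F had an adjusted p of 0.062 without pair 2. ATSPS4F had an adjusted p of 0.053 without pair 3. Among 19 SWEET and tonoplast transporters, 3 fell and 2 rose and 8 lay under a level of 5 in both groups. SWEET2, a vacuolar sugar transporter, went from 9.17, 9.83 and 9.24 to 7.86, 7.51 and 6.56, a change of -2.10 ± 0.27 (SE, adjusted p = 0.0046). SWEET16 of the vacuole fell (-1.13 ± 0.18) and so did the tonoplast importer TMT1 (-0.92 ± 0.17), while TMT2 rose by 0.47. Of the 5 calls, 1 remained without pair 2, 3 without pair 3 and 3 after centring.

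All 4 probe sets named for RNA polymerases I and III rose, at least 2-fold each, with medians of 1.22, 1.41 and 1.43 in pairs 1 to 3. The share rising was 17.3% over the array and 24.8% at levels of 7 to 9. NRPA1, of the polymerase I core that transcribes ribosomal RNA, read 6.63, 6.55 and 6.91 without glucose and 8.28, 9.01 and 8.89 with it, a change of 2.03 ± 0.17 (SE, adjusted p = 0.0023). NRPA2, its second subunit, rose by 1.49 ± 0.13. NRPC1 and NRPC2 of RNA polymerase III, which makes transfer RNAs, rose by 1.13 ± 0.12 and 1.06 ± 0.13. These 4 passed without any 1 of the pairs. Among 8 subunits listed under polymerases II, IV and V, 5 rose and none fell, led by NRPB9B, NRPB12 (1.2) and NRPB7 (1.11). NRPB12 is also a subunit of polymerases I and III, so its rise cannot be assigned to either list alone. NRPB9B went from 6.72, 6.21 and 5.88 to 8.0, 7.90 and 7.84, a change of 1.65 ± 0.16 (SE, adjusted p = 0.0027), and its paralogue NRPB9A, at 0.29, did not pass. Of the 5 calls, 3 remained without pair 2, 3 without pair 3 and 3 after centring.

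Of 4 genes of ribosome biogenesis 3 rose. PES, a Pescadillo homologue of large-subunit assembly, rose by 0.86 ± 0.11, and the exosome subunits RRP41 and RRP41L by 0.72 and 0.84. Of 4 RNA helicases 3 rose, led by AtRH57, a helicase of ribosomal RNA processing, from 6.62, 6.62 and 6.85 to 7.95, 8.18 and 8.33, a change of 1.46 ± 0.11 (SE, adjusted p = 0.0019). Of the 3 helicase calls, 1 remained without pair 2, 2 without pair 3 and 1 without the replicate block. DIM1A, an 18S rRNA dimethylase, was flat at -0.01. Outside the lists, and chosen after their values were seen, YAO, a nucleolar protein of ribosomal RNA processing, went from 7.09, 7.10 and 7.12 to 8.92, 9.32 and 9.24 (2.06 ± 0.13, adjusted p = 0.0018). TRM82 of transfer RNA methylation rose by 1.57 ± 0.14, TRZ3, a tRNase Z, by 1.34 ± 0.11, the nuclear exporter XPO1B by 1.64 ± 0.12 and Atcoilin, the scaffold of Cajal bodies, by 1.24 ± 0.14. For Atcoilin the authors' deposited dChip log2 change is only 0.5 (dChip p = 0.0712), against 1.2 by RMA. The untreated arrays of YAO were nearly equal. For nucleotides, PYRB, the aspartate transcarbamoylase of pyrimidine synthesis, rose by 1.51 ± 0.12 and UPP by 0.48, while PyrD at 0.35 did not pass. UPP had adjusted p-values of 0.17 without pair 2, 0.11 without pair 3, 0.22 without the replicate block and 0.057 after centring. FAC1, an AMP deaminase outside that list and chosen after its values were seen, rose by 1.13 ± 0.14. Of 6 LSM proteins, which bind RNA in splicing and decay, 1 rose (LSM6A, 0.44). The share rising was 17.3% over the array and 24.8% at levels of 7 to 9. After centring, LSM6A had an adjusted p of 0.079. RRP41 and LSM6A had adjusted p-values of 0.061 and 0.24 without pair 2. LSM6A had an adjusted p of 0.10 without pair 3. LSM6A had an adjusted p of 0.15 without the replicate block.

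All 3 named genes of the DNA replication list rose. POLA3, a primase subunit of DNA polymerase alpha, read 6.74, 6.10 and 5.80 without glucose and 8.64, 9.11 and 8.75 with it, a change of 2.62 ± 0.24 (SE, adjusted p = 0.0025). The catalytic polymerase alpha gene ICU2 changed by 2.42 ± 0.24 (SE, adjusted p = 0.0028), and PRL (PROLIFERA), a subunit of the MCM helicase, by 2.41 ± 0.24 (SE, adjusted p = 0.0029). They rose 5.33- to 6.15-fold and stayed called without any 1 pair. POLD3, a DNA polymerase delta subunit picked from outside the list, rose by 1.60 ± 0.15, UNG, the uracil-DNA glycosylase, by 1.19 ± 0.14, and TOP3A, a topoisomerase, by 1.2 ± 0.22. Of 7 histone genes, 5 rose and 1 fell. HTB1, a histone H2B, went from 8.56, 8.19 and 8.0 to 10.13, 9.71 and 9.98, a change of 1.69 ± 0.14 (SE, adjusted p = 0.0021), and HTB2 rose by 1.33 ± 0.13. HTR12, the centromeric histone H3, rose by 0.93 ± 0.11. The linker histone HIS1-3, which responds to drought, fell (-1.68) with overlapping groups (4.1, 6.55 and 6.31 to 3.60, 3.94 and 4.37). The mitotic Aurora kinases AUR1, AUR2 and AUR3 stood at 0.34, -0.60 and -0.28 and did not pass, AUR2 with an adjusted p of 0.051. SIM, a kinase inhibitor, fell (-0.65). SIM and HIS1-3 had adjusted p-values of 0.18 and 0.090 without pair 2. SIM and HIS1-3 had adjusted p-values of 0.050 and 0.099 without pair 3. HIS1-3 had an adjusted p of 0.097 without the replicate block.

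Among tubulins, the direction depended on the gene. TUB1 read 6.44, 5.61 and 5.78 without glucose and 8.10, 7.83 and 7.95 with it, a change of 2.02 ± 0.15 (SE, adjusted p = 0.0019), TUA6 rose by 1.13 ± 0.14 from a high level and TUB7 by 0.83 ± 0.14. TUA1, known for its expression in pollen, fell from 8.77, 9.66 and 9.58 to 7.98, 8.30 and 7.96, a change of -1.25 ± 0.18 (SE, adjusted p = 0.0060). Of 9 tubulins and cofactors, 4 rose, 1 fell and 4 did not pass, and 3 of the 5 calls remained without pair 2. Of 2 actins, ACT11 rose (0.69). TUB7 and ACT11 had adjusted p-values of 0.070 and 0.11 without pair 2. ACT11 had an adjusted p of 0.083 without pair 3.

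**Figure D2:**
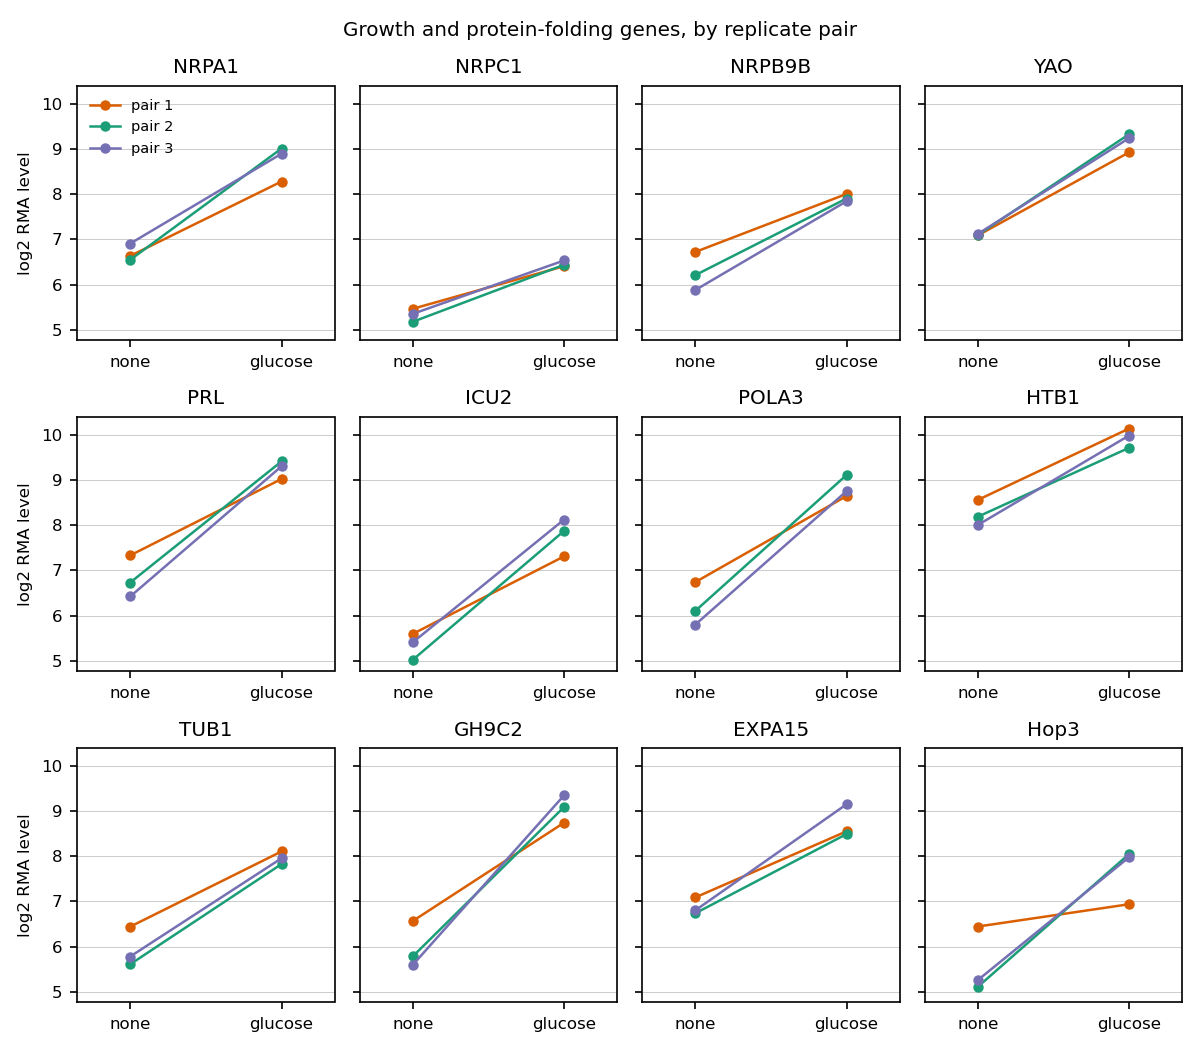
Log2 RMA level of 12 genes of transcription, DNA synthesis, cell structure and protein folding in each array without and with glucose, joined by replicate number. All lines rise, the lines of NRPC1, TUB1 and YAO run nearly parallel in the 3 pairs, and Hop3 is the least even, with a pair 1 line (orange) much flatter than the others.

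Heat-shock and cochaperone genes rose with glucose, unevenly between pairs. All 5 members of the heat-shock list rose, 4 of them at least 2-fold, with medians of 0.57, 1.91 and 2.72 in pairs 1 to 3. That list was added after values were seen. Hop3, a cochaperone that links Hsp70 and Hsp90, read 6.44, 5.11 and 5.26 without glucose and 6.94, 8.05 and 7.98 with it, a change of 2.05 ± 0.47 (SE, adjusted p = 0.025). Hsp70-2 read 8.27, 7.39 and 7.13 without glucose and 9.07, 9.45 and 10.11 with it, a change of 1.94 ± 0.39 (SE, adjusted p = 0.016). In both the untreated array of pair 1 was the highest of its group and the glucose array of pair 1 the lowest of its own. ATHSP22.0, a small heat-shock protein, rose by 1.63 ± 0.44, Hop2 by 1.22 ± 0.22 and Hop1 by 0.70 ± 0.14. Of these 5 calls, none remained without pair 2 and 2 remained without pair 3. ATFKBP65, a heat-induced peptidyl-prolyl isomerase picked after its values were seen, showed the same layout, at 7.88, 5.07 and 5.04 without glucose and 7.78, 10.29 and 9.70 with it, and did not pass (3.26 ± 1.01, adjusted p = 0.060). Hop1, Hop2, Hop3, Hsp70-2 and ATHSP22.0 had adjusted p-values of 0.12, 0.065, 0.11, 0.072 and 0.15 without pair 2. Hop2, Hop3 and ATHSP22.0 had adjusted p-values of 0.059, 0.11 and 0.13 without pair 3.

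Chaperonins, the ring-shaped folding chambers, rose in 3 of 4 cases. Cpn60beta2 of the chloroplast went from 10.86, 8.71 and 8.56 to 12.11, 11.79 and 11.86, a change of 2.54 ± 0.40 (SE, adjusted p = 0.0078), again with a high untreated array in pair 1. Its relative Cpn60beta3 rose evenly, from 7.55, 7.17 and 7.35 to 8.86, 8.95 and 8.74 (1.5 ± 0.14, adjusted p = 0.0025), and CCT2 of the cytosolic ring by 0.70 ± 0.15. In the endoplasmic reticulum, ATERDJ3B, a J-protein partner of BiP, rose by 1.79 ± 0.27, the calcium-binding chaperone CRT1b by 1.7 ± 0.21, and ATERDJ2A and ATERDJ2B by 0.62 and 0.72 with groups that overlapped. DER2.1, a Derlin of the pathway that removes misfolded proteins, fell from 9.71, 10.18 and 9.79 to 8.74, 8.71 and 8.45 (-1.26 ± 0.14, adjusted p = 0.0033). In that list 4 of 9 probe sets rose and 1 fell, and 3 of the 5 calls remained without pair 2 and 3 without the replicate block. CCT2, ATERDJ2A and ATERDJ2B had adjusted p-values of 0.062, 0.14 and 0.068 without pair 2. CCT2 and ATERDJ2A had adjusted p-values of 0.058 and 0.056 without pair 3. ATERDJ2A and ATERDJ2B had adjusted p-values of 0.096 and 0.11 without the replicate block.

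Of 13 named pentatricopeptide repeat (PPR) proteins, which edit, splice or stabilise organelle RNA, 5 rose and none fell. The share rising was 17.3% over the array and 24.8% at levels of 7 to 9. The PPR list was added after values were seen. PPR596 of mitochondria went from 7.50, 7.33 and 7.28 to 9.53, 9.86 and 9.97, a change of 2.42 ± 0.16 (SE, adjusted p = 0.0018), OTP81 rose by 1.45 ± 0.12 and PPR336 by 1.25 ± 0.12, and 3 of the 5 calls remained without any 1 pair and without the replicate block. HLL, a mitochondrial ribosomal protein needed for ovule growth and chosen after its values were seen, rose by 1.39 ± 0.24. Of 12 photosystem subunits and assembly factors 2 fell, PSB27 (-0.59) and LHCB4.3 (-0.56, groups overlapping), none rose, and the median was -0.07. Among 69 probe sets of genes encoded in the plastid genome, 1 rose and 7 fell, with a median of -0.21. The NDH complex of cyclic electron flow fell in part, with NdhS at -1.11 ± 0.18 and NdhL at -0.76 with overlapping groups. PGRL1B, a protein of cyclic electron flow by the route without NDH, fell (-0.89 ± 0.15). CURT1D, a curvature protein of thylakoid membranes, rose from 8.35, 7.91 and 7.64 to 9.78, 9.92 and 10.05 (1.95 ± 0.20, adjusted p = 0.0030). NdhS, NdhL, PGRL1B, HLL, PSB27 and LHCB4.3 had adjusted p-values of 0.057, 0.070, 0.054, 0.059, 0.13 and 0.15 without pair 2. NdhL, PSB27 and LHCB4.3 had adjusted p-values of 0.058, 0.10 and 0.073 without pair 3. NdhL and LHCB4.3 had adjusted p-values of 0.18 and 0.67 without the replicate block.

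Of 7 genes of pigment synthesis 3 fell and 1 rose. PORB, a protochlorophyllide oxidoreductase, rose in every pair from 10.89, 11.26 and 10.36 to 11.84, 12.38 and 11.49 (1.07 ± 0.11, adjusted p = 0.0031). CHLM, an earlier enzyme of the same route, fell (-0.74 ± 0.13), HEMA2 (-0.92 ± 0.18) and the carotenoid cyclase LYC (-0.50 ± 0.13). HPR, the peroxisomal hydroxypyruvate reductase of photorespiration and among the brightest transcripts that fell, went from 13.32, 13.11 and 12.99 to 12.43, 11.60 and 10.79, a change of -1.53 ± 0.25 (SE, adjusted p = 0.0085). PRK, SBPASE and RCA of the Calvin cycle stood at -0.40, -0.22 and 0.05 and did not pass. CHLM, HEMA2 and LYC had adjusted p-values of 0.079, 0.094 and 0.22 without pair 2. CHLM, HEMA2 and LYC had adjusted p-values of 0.059, 0.071 and 0.15 without pair 3. LYC had an adjusted p of 0.076 without the replicate block.

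Of 91 probe sets for the cell wall, 26 rose and 6 fell, beside 17.3% and 13.0% over the array. GH9C2, a secreted endoglucanase with a cellulose-binding module, read 6.57, 5.78 and 5.60 without glucose and 8.74, 9.09 and 9.34 with it, a change of 3.07 ± 0.30 (SE, adjusted p = 0.0027), or 8.42-fold. GH9B8, GH9B13 and GH9C3 rose by 1.52 ± 0.15, 1.36 ± 0.17 and 1.14 ± 0.17, and GH9B7 by 0.69 ± 0.13. The untreated levels of GH9B8 and GH9C3 lie under 5. For GH9C3 the authors' deposited dChip log2 change is 0.8 (dChip p = 0.0295), against 1.1 by RMA. None of 15 GH9 members fell, and 10 did not pass. The GH9 list was added after values were seen. XTH19, which cuts and rejoins xyloglucan, went from 3.91, 3.88 and 4.07 to 6.24, 7.06 and 6.19 (2.54 ± 0.22, adjusted p = 0.0023). Its untreated levels lie under 5, where differences are poorly measured, and the authors' deposited table lists its dChip log2 change at 0.0 against 2.5 by RMA. XTH20 rose by 0.88 ± 0.16, whereas EXGT-A3 of the same family fell from 11.32, 11.28 and 11.34 to 10.52, 10.03 and 10.18 (-1.07 ± 0.13, adjusted p = 0.0044). Of 10 family members, 4 rose and 1 fell, and of these 5 calls 2 remained without pair 2 and 2 without pair 3. GH9B7 and XTH20 had adjusted p-values of 0.10 and 0.076 without pair 2. GH9B7 and XTH20 had adjusted p-values of 0.071 and 0.053 without pair 3.

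Expansins, which loosen walls during growth, and their relatives without shown loosening activity differed in the direction of their calls. Of 14 expansins, 6 rose and none fell, with medians of -0.06, 0.48 and 0.82 in pairs 1 to 3. EXPA15 read 7.09, 6.74 and 6.80 without glucose and 8.55, 8.49 and 9.15 with it, a change of 1.85 ± 0.19 (SE, adjusted p = 0.0029), and EXPB1 and EXPB3 rose by 1.65 ± 0.20 and 1.54 ± 0.27. Of 5 expansin-like genes, 2 fell and none rose. EXLB1 went from 7.84, 7.97 and 7.64 to 6.52, 5.76 and 5.86 (-1.77 ± 0.18, adjusted p = 0.0031) and EXLA1 from 8.31, 9.73 and 9.96 to 7.57, 7.80 and 6.82 (-1.94 ± 0.42, adjusted p = 0.021). Of the 6 expansin calls 3 remained without pair 2 and 4 without pair 3. The multicopper-oxidase relatives sks15 and sks16 rose by 2.56 ± 0.19 and 1.7 ± 0.23 from dim untreated levels under 5. Peroxidases split, with PRXR1 higher by 0.90 ± 0.12, Prx37 by 0.82 ± 0.13 and AtPRX71 lower (-1.37) with groups that met. EXLA1 and AtPRX71 had adjusted p-values of 0.081 and 0.078 without pair 2. AtPRX71 had an adjusted p of 0.080 without the replicate block.

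Of 24 probe sets of the TBL family, which acetylates wall polysaccharides, 6 rose and 2 fell, and of 13 cellulose synthase-like and pectin-modifying members 1 rose (CSLC5, 0.53). CSLC5 had an adjusted p of 0.18 without pair 2. CSLC5 had an adjusted p of 0.067 without pair 3. TBL41 had the highest change of the TBL genes (1.11 ± 0.18), but in the authors' deposited table its dChip log2 change is -0.9 against 1.1 by RMA. Without pair 2 none of the 8 TBL calls remained and without pair 3, 2 did. Without the replicate block 4 did. Among transferases that build arabinogalactan side chains, chosen after their values were seen, GALT29A rose by 1.28 ± 0.14 and GlcA transferase 14B by 1.28 ± 0.13. GFAT, which makes the amino sugar for N-glycans, went from 5.22, 6.03 and 4.86 to 6.82, 7.96 and 7.78 (2.15 ± 0.26, adjusted p = 0.0041).

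**Figure D3:**
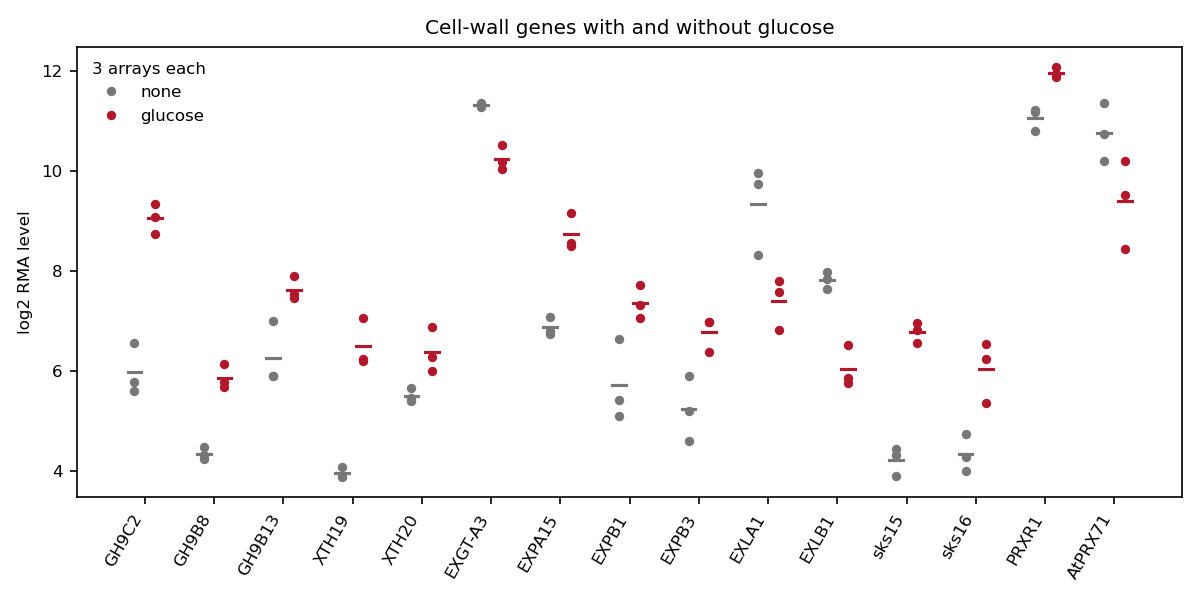
Log2 RMA level of 15 cell-wall genes in the 3 arrays without glucose (grey) and the 3 with it (red), each point 1 array and each bar a group mean. Endoglucanases, XTH19, expansins and sks genes are higher with glucose, EXGT-A3 and the expansin-like EXLA1 and EXLB1 are lower, and the groups of AtPRX71 touch.

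Of 140 probe sets for specialised metabolism, sulphur and redox genes, 23 rose and 22 fell, and the 32.1% called is near the 30.4% of the array. UGT78D1, which adds rhamnose to flavonols, read 7.24, 6.18 and 6.25 without glucose and 8.92, 8.98 and 9.84 with it, a change of 2.69 ± 0.35 (SE, adjusted p = 0.0048), and CHIL, a chalcone isomerase-like helper of flavonoid synthesis, rose from 7.78, 6.13 and 6.15 to 9.12, 8.04 and 8.26 (1.79 ± 0.17, adjusted p = 0.0027). UGT78D2, which adds glucose to the same compounds, changed by 0.88 with overlapping groups, and DFR of the anthocyanin branch was at 0.41, not called. Thus 3 of 9 flavonoid and phenylpropanoid members rose and none fell. Of all 51 named UDP-glycosyltransferase probe sets, 9 rose and 9 fell, with a median of -0.03, and of these 18 calls 7 remained without pair 2 and 10 without pair 3. UGT74B1, which glucosylates the glucosinolate core, rose by 1.22 ± 0.14, and BCAT4, which starts methionine chain elongation for glucosinolates, by 1.31 ± 0.15 with pairs parallel but groups overlapping. UGT73B1 fell most of these, at -1.73 ± 0.27 (SE, adjusted p = 0.0079). SIR, the sulphite reductase, and APS3, an ATP sulphurylase, rose by 1.02 ± 0.16 and 0.92 ± 0.12, and OASA2 fell (-0.72). UGT78D2, SIR and OASA2 had adjusted p-values of 0.063, 0.052 and 0.13 without pair 2. UGT78D2 and OASA2 had adjusted p-values of 0.063 and 0.060 without pair 3. UGT78D2 and BCAT4 had adjusted p-values of 0.16 and 0.082 without the replicate block.

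Detoxification and redox genes had no common direction. Among 13 glutathione transferases, 4 rose and 2 fell, and of these 6 calls 3 remained without pair 2, 4 without pair 3 and 3 without the replicate block. GSTU25 went from 4.23, 4.21 and 4.14 to 6.37, 5.96 and 5.28 (1.68 ± 0.20, adjusted p = 0.0042) and GSTU16 from 7.73, 8.14 and 7.38 to 6.76, 6.64 and 6.04 (-1.27 ± 0.14, adjusted p = 0.0034). GSTU20 rose in every pair, by 1.57 ± 0.17, although its untreated level in pair 1 exceeded the glucose level in pair 3. Of 29 named cytochrome P450 and cyclophilin probe sets that share the CYP name, 2 rose and 4 fell, 14 were under a level of 5, and no call remained without pair 2 or without pair 3. Among glutaredoxins and thioredoxins, ROXY2 fell from 7.90, 8.10 and 8.18 to 6.70, 5.99 and 5.85 (-1.88 ± 0.23, adjusted p = 0.0043), TRXF2 of the chloroplast (-1.14 ± 0.15) and GRXC1 (-0.95 ± 0.13). Of the 5 calls in that list, 3 remained without pair 2, 3 without pair 3 and 3 without the replicate block. Of 22 beta-glucosidases 3 rose, BGLU44 most (1.52 ± 0.11), and 2 fell, BGLU46 and BGLU16 (-1.48 and -1.30), and of these 5 calls 3 remained without pair 2 and 4 without pair 3. BGLU46 and BGLU16 had adjusted p-values of 0.14 and 0.053 without pair 2. BGLU46 had an adjusted p of 0.12 without pair 3. GSTU20 had an adjusted p of 0.081 without the replicate block.

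Of 116 probe sets for transcription factors and signals, 6 rose and 15 fell. The 18.1% called is below the 30.4% of the array, but many of these probe sets are dim, and dim ones are rarely called. The AGAMOUS-like list alone has 36 of 44 under a level of 5 in both groups. Of 7 genes named bHLH, 5 fell and 1 rose, with a median of -0.72 (-0.59, -0.64 and -0.74 by pair). Of the 5, bHLH121, bHLH104, ILR3 and BHLH101 are known regulators of iron supply, and so is the 1 that rose, bHLH34 (0.71). bHLH34 had an adjusted p of 0.19 without pair 2. bHLH34 had an adjusted p of 0.13 without pair 3. For bHLH121 the level went from 9.57, 9.65 and 10.37 to 8.36, 8.10 and 7.83 (-1.77 ± 0.26, adjusted p = 0.0064), and for bHLH104 the change was -1.18 ± 0.17 (SE, adjusted p = 0.0058). BHLH101 was dim and fell (-0.72), ILR3 fell (-0.42), and bHLH115 of the same set did not pass (-0.07). Of the 6 calls, 2 remained without pair 2 and 3 without pair 3. Of 23 bZIP factors, 5 fell and 1 rose, all under 2-fold. BZIP53, a starvation-linked partner in amino acid breakdown control, fell (-0.82 ± 0.15) and so did HYH, the homologue of the light regulator HY5 (-0.98 ± 0.16) with overlapping groups. None of the 6 bZIP calls remained without pair 2, and 3 did without pair 3. WRKY22 fell from 8.24, 9.97 and 8.96 to 6.75, 6.59 and 6.77 (-2.35 ± 0.34, adjusted p = 0.0064), the only call among 7 WRKY factors. Of 44 AGAMOUS-like probe sets, 36 were under a level of 5 and 1 fell.

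Of 12 auxin IAA and GH3 genes 2 fell, IAA34 and IAA18 (both -0.77), and IAA29 at 1.05 did not pass. RR16, a cytokinin response regulator, rose by 1.02 ± 0.25. RALFL34 and RALFL31, peptides that signal in cell expansion and root branching, rose by 1.18 ± 0.20 and 0.84 ± 0.15, while RALFL32 fell (-1.12 ± 0.13). CLE41, a peptide of vascular stem cells, rose by 0.93 ± 0.11. Outside the lists and chosen after their values were seen, the gibberellin receptor GID1A fell (-1.39 ± 0.24), SKP2A, an F-box protein of cell division (-2.04 ± 0.17), and EXO (EXORDIUM), a protein linked to growth under low carbon, from 12.03, 11.99 and 12.13 to 10.56, 9.53 and 9.60 (-2.16 ± 0.23, adjusted p = 0.0032). ATL8, a RING-type ubiquitin ligase, was among the deepest drops, from 8.27, 9.74 and 9.66 to 5.55, 5.98 and 5.67 (-3.49 ± 0.26, adjusted p = 0.0019). RALFL34, RALFL31, GID1A, IAA34 and IAA18 had adjusted p-values of 0.062, 0.057, 0.061, 0.053 and 0.16 without pair 2. RR16, RALFL34, GID1A and IAA18 had adjusted p-values of 0.070, 0.052, 0.051 and 0.14 without pair 3. RR16 had an adjusted p of 0.13 without the replicate block.

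Of 35 probe sets for stress-related genes 5 rose and 7 fell (34.3%). COR27, a cold- and clock-linked regulator, read 9.99, 9.83 and 11.14 without glucose and 8.97, 6.43 and 8.87 with it, a change of -2.23 ± 0.42 (SE, adjusted p = 0.013), and COR47, a dehydrin, fell (-0.74 ± 0.15), while COR15A and COR15B stood at 0.03 and 0.01. Of 8 calmodulin-like genes 4 fell, with CML30 and CML41 at -1.16 ± 0.17 and -1.06 ± 0.12, and 1 rose, and of these 5 calls 2 remained without pair 2, 2 without pair 3 and 3 without pair 1. PDF1.4, a defensin, dropped from 7.53, 9.12 and 8.07 to 5.71, 6.08 and 5.33 (-2.53 ± 0.24, adjusted p = 0.0027), whereas PDF1A and PDF2.5 rose by 0.63 and 1.33. Of 15 defensin probe sets 3 rose and 1 fell, and 1 of these 4 calls remained without pair 2, 2 without pair 3 and 2 without the replicate block. Seed-storage and late-embryogenesis genes were mostly dim, 5 of 8 under a level of 5, with 1 called, which was lost without pair 2 and without pair 3. Among transporters, CHX16 rose in every pair, from 5.59, 7.0 and 5.45 to 6.74, 9.21 and 7.82 (1.91 ± 0.25, adjusted p = 0.0049), and AtNPF3.1, a nitrite and hormone transporter, by 1.29 ± 0.11. AtNPF6.4, a nitrate transporter, fell (-0.93 ± 0.11). The groups of CHX16 and AtNPF6.4 overlapped although every pair moved the same way. COR47, PDF1A and PDF2.5 had adjusted p-values of 0.058, 0.086 and 0.070 without pair 2. COR27, COR47 and PDF1A had adjusted p-values of 0.056, 0.065 and 0.054 without pair 3. COR27, PDF2.5, CHX16 and AtNPF6.4 had adjusted p-values of 0.062, 0.072, 0.082 and 0.15 without the replicate block.

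Of 73 probe sets for protein turnover 32.9% were called, and of 81 for membrane traffic 28.4%, about the 30.4% of the array. Of 13 ubiquitin-conjugating enzymes, 5 fell and 1 rose, and of these 6 calls 2 remained without pair 2 and 3 without pair 3. UBC28, among the brightest transcripts that fell, went from 12.86, 13.03 and 13.03 to 11.71, 11.46 and 11.37 (-1.46 ± 0.14, adjusted p = 0.0027), and UBC16 fell (-1.56 ± 0.23). Of 12 ubiquitin-specific proteases 3 rose, led by UBP21 from 6.69, 6.02 and 6.37 to 8.24, 8.15 and 8.36 (1.89 ± 0.15, adjusted p = 0.0020). Of 29 serine carboxypeptidase-like genes 8 rose and 1 fell, scpl35 most (1.84 ± 0.25), and of the 9 calls 2 remained without pair 2 and 3 without pair 3. GAMMA-VPE, a vacuolar processing protease chosen after its values were seen, fell from 11.13, 11.28 and 11.40 to 9.97, 9.04 and 8.66 (-2.05 ± 0.30, adjusted p = 0.0063). CP5, among the brightest drops but not a member of the turnover lists, fell (-1.72 ± 0.22). Of 9 ESCRT subunits, which sort membrane proteins to the vacuole, 5 fell by 0.48 to 0.90, and of these calls none remained without pair 2 and 1 without pair 3. Of 15 tetraspanins 4 fell and none rose, and 1 of the 4 calls remained without pair 2 and 2 without pair 3. None of 7 exocyst subunits passed, and SEC10 came closest (change -0.33, adjusted p = 0.11). Of 11 prenylated Rab acceptors 3 rose, PRA1.B4 most (1.58 ± 0.22), and 1 fell, and 1 of these 4 calls remained without pair 2 and 2 without pair 3. Among calmodulin-binding proteins, 5 of 15 IQ-domain proteins, which link calmodulin to microtubules, rose and none fell, and of these 5 calls none remained without pair 2 and 1 without pair 3. NET3A and NET4B, actin-binding proteins at membranes, fell (-1.45 ± 0.27 and -1.11 ± 0.22), and 2 of the other 8 members of that family rose. None of those 4 calls remained without pair 2. NET3A and NET4B had adjusted p-values of 0.061 and 0.085 without pair 2. NET4B had an adjusted p of 0.061 without pair 3.

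**Figure D4:**
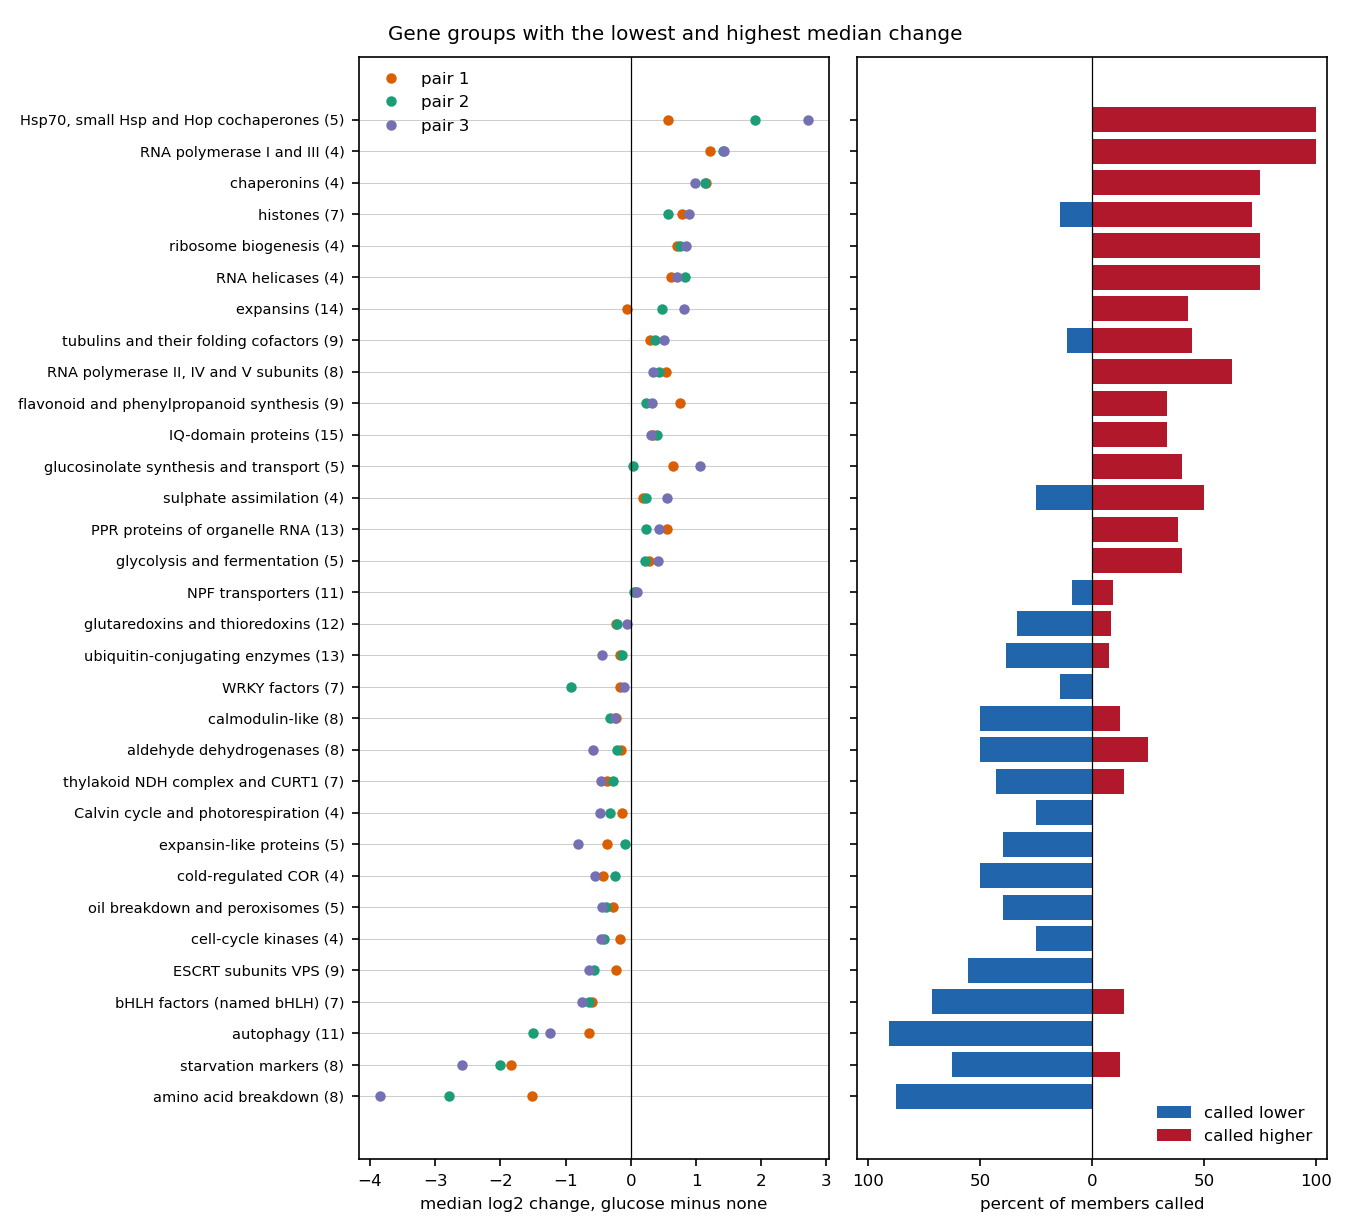
Left, median log2 change in each replicate pair for the 16 gene groups with the lowest and the 16 with the highest median among those with at least 4 probe sets (number in brackets). Right, the percentage of members called lower and higher. Amino acid breakdown, starvation markers and autophagy lie far to the left in all 3 pairs, heat-shock proteins and RNA polymerases I and III to the right, and the pair medians of amino acid breakdown and of heat-shock proteins lie over 2 apart.

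All 6907 calls changed in the same direction in the 3 pairs, and the pairs differed in size. A paired fit on 3 pairs seldom calls a change whose pairs disagree, so the shared direction is nearly built in. Probe sets that did not pass could differ in direction too, as ATFKBP65 did. Across all probe sets the changes of pairs 1 and 2, 1 and 3, and 2 and 3 correlated at 0.80, 0.78 and 0.90, a description in which probe sets of 1 array are not independent. The SD of the change was 0.55 in pair 1, 0.77 in pair 2 and 0.84 in pair 3, and pair 1 had a slope of 0.57 on the mean of the others. Over rises of at least 2-fold, the untreated array of pair 1 differed from the mean of the other untreated arrays by a median of 0.30, and its glucose array from the mean of the other glucose arrays by a median of -0.18. Over drops of at least 2-fold the corresponding offsets were -0.45 and 0.32. Of 535 probe sets that changed by over 2 in the same direction in pairs 2 and 3, 85 changed by under 1 in pair 1, 49 of them risers among 238. They include Hsp70-2, Hop3, ATFKBP65, LKR, SDP1, ASPGB1 and UPB1, a transcription factor of root growth (6.56, 7.87 and 7.40 without glucose and 5.83, 4.33 and 4.62 with it). AT1G80130 is the plainest case, with 4.81, 4.70 and 4.83 without glucose and 4.92, 9.40 and 9.0 with it. UPB1 had an adjusted p of 0.075 without pair 2. UPB1 had an adjusted p of 0.088 without pair 3. What set pair 1 apart was not tested.

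Large drops were also found next to each other in the genome. For 5756 pairs of neighbouring protein-coding genes with probe sets specific to each, both fell at least 2-fold in 43 pairs, both rose in 25 and they moved apart in 38. Among neighbours of genes that fell at least 2-fold, 14.1% did so too, against 5.3% of all genes in these pairs. For rises the figures were 7.3% and 6.0%. Ranked by the smaller drop of each pair, the deepest were AT1G19530 with AT1G19540, AT3G15440 (-2.40) with AT3G15450 (-3.06), and AT1G33050 (-2.20) with AT1G33055 (-2.43). Shared transcripts between neighbours were not tested. Of 152 gene symbols with several probe sets, 17 were called the same way by all of them, 25 by some, 109 by none and 1 in both directions. A symbol can be shared by different genes, as RBL and SPP are, so these are not all probe sets of the same gene. In the authors' deposited table, the dChip fold change had the same sign for 2503 of the 2511 changes of at least 2-fold and was itself at least 2-fold for 2406. Of the other 8, 7 are listed at 0.0 there, among them XTH19 and both GAT1_2.1 probe sets, and TBL41 has the opposite sign.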

How the data were processed

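Expression was measured on arrays in 12 seedling samples, of which the 6 wild-type ones were used. The authors deposited log2 values made with RMA, per the submitters' processing notes. The sources used here do not say which arrays shared a normalization. Per the file headers, the authors also deposited log2 fold changes and p-values by RMA and dChip. Control probe sets (64) were dropped. limma 3.58.1 in R 4.3.3 fitted glucose against none with the replicate number as a block, and adjusted p-values over 22746 probe sets (Benjamini-Hochberg, called under 0.05). The fit was tested on simulated data.

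Same-numbered arrays deviated together from their group means (18 correlations of 0.20 to 0.86, 3 of them within WT at 0.31 to 0.40), which the pairing rests on. Genes were named from the deposited tables and RefSeq (TAIR10.1), with 13436 probe sets matched. Members and gene lists were chosen with earlier results of these data known, and 28 of the 73 lists were added after values were seen. The other 45 are counted as fixed, beside 72 lists that were planned. Some have narrower names than planned, such as cytochrome c for the respiratory chain. Expansins and expansin-like proteins stand for a planned list of expansins and wall loosening. Not every planned list is described here. The 28 added lists include aldehyde dehydrogenases, polymerases II, IV and V, LSM, heat-shock, endoplasmic reticulum, PPR, NDH, GH9, TBL and SKU5-similar genes. They also include beta-glucosidases, NPF, CHX, glutamate receptor-like, defensin, AGAMOUS-like, RALF, CLE, ubiquitin-conjugating, ubiquitin-specific protease, carboxypeptidase-like and subtilase genes. The rest are ESCRT, Rab acceptor, tetraspanin, NET, IQ-domain and TON1-recruiting genes. Genes were named among calls whose 3 pairs moved the same way, which was true of every call. They are the 12 highest and 12 lowest changes, up to 5 called members per list (or the smallest p) and the 5 brightest rises and drops of at least 2-fold. Others are said to be chosen after their values were seen or given as further list members. Promoter motifs were not analysed here.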

Additional observations from a re-analysis of the deposited data

How the results depend on the processing

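With the replicate block removed, 3172 probe sets rose and 2316 fell, and 2325 of the 2511 calls of at least 2-fold remained. With all 12 arrays the counts were 4949 and 3954 with the block and 3077 and 2377 without it. Leaving out a pair gave 1548 to 4238 rises and 909 to 3873 drops, and 1144 to 1721 rises and 756 to 1546 drops of at least 2-fold. The lowest counts of all calls came without pair 2 (1548 and 909), then without pair 3 (2232 and 1371). With 2 pairs the fit has 1 residual degree of freedom among samples. Centring each array on its median gave 3254 rises and 3817 drops. No probe set called in the full fit was called in the opposite direction under these settings, but 3 were with the authors' deposited dChip p-values. Of 264 named probe sets, 131 were no longer called without pair 2, 95 without pair 3, 8 without pair 1, 46 without the block and 13 after centring, and none of the 264 reversed. A filter on a level of 5, a second quantile normalization, a robust variance trend and the authors' deposited RMA p-values kept the counts of rises and drops within 1.5 times. Low signal limits the 6969 probe sets under a mean level of 5. The number of arrays limits the precision of every change.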
